A study of Mus musculus with 16 samples.

Results

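Tgm2 encodes tissue transglutaminase (transglutaminase 2), the 1 gene described here of 10920 protein-coding genes in the tables. It was followed by its gene symbol through all 16 libraries. It was chosen by its measured values, because its messenger RNA was lower with IL-4 in Sirt3 K223R macrophages and higher with IL-4 in wild-type macrophages. The levels and differences of Tgm2 itself are therefore a description, with no p-value, while tests are given for other genes.

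RNA was sequenced from macrophages grown out of the bone marrow of C57BL/6 mice aged 8 weeks, kept for 7 days with M-CSF, the macrophage growth factor, at 20 ng/ml. The 4 groups, of 4 libraries each, were Sirt3 K223R cells given IL-4, untreated Sirt3 K223R cells, wild-type cells given IL-4 and untreated wild-type cells. IL-4, the cytokine that drives alternative activation, was given at 20 ng/ml for 24 hours. Sirt3 is the main deacetylase of the mitochondrial matrix, and K223R names a change of a lysine to an arginine. How the allele was made, which cells of the mouse carry it and whether replicates came from separate mice are not given in the labels, so the spread behind each p-value is that among these libraries and may be technical. The values are taken as FPKM, a fragment count divided by transcript length and by library size, and were compared as log2(FPKM + 1), a scale that understates changes of genes with low values.

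Transglutaminase 2 joins glutamine side chains of proteins to lysines or to polyamines in the presence of calcium. When calcium is low it binds GTP and can act as a signalling G protein, and at the cell surface it holds fibronectin beside integrins. In macrophages it is widely used as a marker of alternative activation and takes part in the uptake of apoptotic cells. Its gene is a known target of IL-4 through STAT6, of retinoic acid receptors, and of TGF-beta and NF-kappaB.

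The gene, ENSMUSG00000037820.15, lies on the minus strand of chromosome 2 at 158116402 to 158146436 on GRCm38. GENCODE M21 lists 4 transcripts, of which the protein-coding one has 13 exons and 3596 exonic bases. Its 3′ part overlaps Rprd1b on the plus strand (158028497 to 158132297), a regulator of RNA polymerase II, and the short noncoding transcript Gm20412 (158117154 to 158117905), which was not analysed here. The libraries were stranded, but the strand setting of the authors' counting is not given in the sources used here, so reads of these partners cannot be told apart from those of Tgm2. Rprd1b was at 3.54, 3.32, 3.72 and 3.65 FPKM in Sirt3 K223R cells with IL-4, 3.90, 1.02, 4.0 and 0.828 FPKM in untreated Sirt3 K223R cells, 3.65, 3.47, 0.704 and 3.47 FPKM in wild-type cells with IL-4, and 0.704, 3.56, 3.81 and 3.74 FPKM in untreated wild-type cells. Each of its values was a small share of that of Tgm2. Within groups its values were uneven, with an SE of 0.41 for each log2 difference between groups. It passed the test in none of the comparisons, which with that spread says little.

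Tgm2 was a highly expressed gene in every library, and its level set the wild-type IL-4 libraries apart from the other 12. In Sirt3 K223R cells with IL-4 it was at 77.5, 88.6, 69.2 and 74.2 FPKM in replicates 1 to 4. In untreated Sirt3 K223R cells it was at 91.6, 99.0, 90.5 and 93.1 FPKM. These libraries did not overlap, the 4 with IL-4 all being lower, as for 27.8% of genes tested. In wild-type cells with IL-4 the values were 141, 137, 149 and 141 FPKM, and in untreated wild-type cells 78.6, 83.8, 105 and 97.9 FPKM. Here the 4 libraries with IL-4 were all higher than the untreated ones, again with no overlap, as for 11.5% of genes tested.

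**Figure D1:**
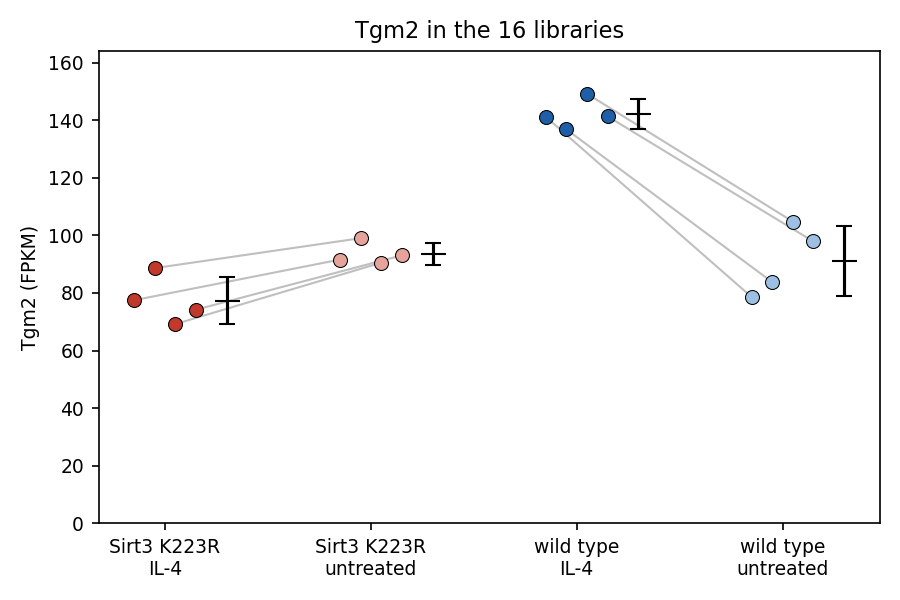
Tgm2 in each of the 16 libraries (points, FPKM, linear axis from 0), by group, with the group mean and SD beside them and grey lines joining libraries of 1 genotype with the same number. The wild-type IL-4 libraries lie between 137 and 149 FPKM, above all others, and the Sirt3 K223R IL-4 libraries, between 69.2 and 88.6 FPKM, lie below the untreated Sirt3 K223R libraries.

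The group means were 77.4 ± 8.25 FPKM in Sirt3 K223R cells with IL-4, 93.6 ± 3.80 in untreated Sirt3 K223R cells, 142 ± 5.16 in wild-type cells with IL-4 and 91.3 ± 12.2 in untreated wild-type cells (SD, n = 4 each). From low to high the order was Sirt3 K223R with IL-4, untreated wild type, untreated Sirt3 K223R and wild type with IL-4. The untreated groups, neighbours in that order, did not differ beyond their spread, and the untreated wild-type libraries at 78.6 and 83.8 FPKM lay within the range of Sirt3 K223R cells with IL-4. The spread within groups was uneven, with a coefficient of variation of 10.7% and 13.3% in the lowest groups and 4.06% and 3.63% in untreated Sirt3 K223R cells and wild-type cells with IL-4. In bulk RNA, fewer cells that express a gene and less of its RNA per cell cannot be told apart.

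In Sirt3 K223R cells the mean with IL-4 was 0.827 times that of untreated cells, a log2 difference of -0.28 (SE 0.09). In wild-type cells the mean with IL-4 was 1.56 times that of untreated cells, a log2 difference of 0.64 (SE 0.09). The medians over all 9891 genes tested were -0.09 in Sirt3 K223R cells and -0.04 in wild-type cells. Between genotypes, the log2 difference of Sirt3 K223R from wild type was -0.87 (SE 0.09) with IL-4 and 0.04 (SE 0.09) in untreated cells. The mean of Tgm2 with IL-4 was thus 45.6% lower in Sirt3 K223R cells than in wild-type cells, and the libraries did not overlap, as for 12.3% of genes tested, whereas untreated libraries of the genotypes did.

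The decrease in Sirt3 K223R cells was the smaller of the IL-4 differences and ordinary in size, since 34.5% of genes tested had a larger difference there in either direction. It also depended on scaling. After scaling each library by its median ratio to the mean library it was -0.16, and the scaled IL-4 values of 71.4 to 96.6 overlapped the untreated values of 86.2 to 96.2. With IL-4 the gap between genotypes was among the larger ones, as 31 of the genes tested had a lower difference than Tgm2, and it was -0.81 after the same scaling. The difference of the IL-4 differences was -0.92 (SE 0.12), and 42 genes had a lower one.

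Taken by replicate number, Tgm2 with IL-4 was 0.846, 0.895, 0.764 and 0.797 times its untreated level in Sirt3 K223R cells. In wild-type cells the ratios were 1.80, 1.63, 1.42 and 1.44. All 4 Sirt3 K223R ratios lay under 1 and all 4 wild-type ratios above it, as any matching gives where the values do not overlap. The main fit used no pairing, while the replicate block, an alternative setting, paired same-numbered libraries in both genotypes. For the genotype comparisons that block joined same-numbered libraries across genotypes, where no pairing was seen (correlations of -0.166 to 0.043). Same-numbered libraries deviated together in wild-type cells, and a pairing was not clear in Sirt3 K223R cells.

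Among genes of a library, Tgm2 ranked 477 to 647 from the top in Sirt3 K223R cells with IL-4, 400 to 455 in untreated Sirt3 K223R cells, 293 to 315 in wild-type cells with IL-4 and 375 to 529 in untreated wild-type cells. Its value was 12.1 to 26.1 times the median over genes of its library. A rank uses no scaling between libraries, and the group ranges of ranks kept the same order and the same separations as the FPKM values, those of Sirt3 K223R cells with IL-4 and of untreated wild-type cells again overlapping.

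One library stood apart from its group. On principal component 2 of all genes, Sirt3 K223R IL-4 replicate 2 scored 17.7, against 3.78 to 6.04 for the other 3 libraries with that treatment, and it had the highest Tgm2 value of them. Without it the Tgm2 difference with IL-4 in Sirt3 K223R cells was -0.34. Median-ratio factors were 0.918 to 0.972 in the Sirt3 K223R IL-4 libraries and 0.987 to 1.05 in the other 12, so the group in which Tgm2 was lowest also had the lowest factors. The part of scaling in the result was not tested beyond these values. Sirt3 itself, a check of the gene though not of the substituted base, averaged 1.32 and 1.56 FPKM in Sirt3 K223R cells with and without IL-4, and 1.36 and 1.48 FPKM in wild-type cells with and without IL-4.

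Tgm2 accounted for nearly all transglutaminase mRNA measured. Of 9 other family members, Tgm1, the keratinocyte enzyme, and F13a1, the catalytic subunit of clotting factor XIII, were in the tables, and both fell under the filter of 1 FPKM in 4 libraries. Tgm1 averaged 0.397 and 0.645 FPKM in Sirt3 K223R cells with IL-4 and untreated, and 0.310 and 0.756 FPKM in wild-type cells with IL-4 and untreated. F13a1 averaged 0.104 and 0.607 FPKM in Sirt3 K223R cells with IL-4 and untreated, and 0.166 and 0.684 FPKM in wild-type cells with IL-4 and untreated. Tgm2 made up 98.1% to 99.9% of the summed FPKM of the 3 genes in every library.

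Few other genes shared the crossed response. IL-4 against untreated was called at a limma adjusted p under 0.05 for 42.6% of genes tested in Sirt3 K223R cells and for 26.0% in wild-type cells. Besides Tgm2, 12 genes were called lower in Sirt3 K223R cells and higher in wild-type cells. With Tgm2 counted the share was 0.131% of genes tested, but its own place there follows from its choice and is no test result. A share of 0.0101%, the single gene Ssfa2, had the mirror pattern, with calls lost under the replicate block (adjusted p = 0.103 in wild-type cells). By contrast 13.1% were called lower in both genotypes and 8.48% higher in both. Without overlap of the 4 and 4 libraries, 0.111% of genes lay lower with IL-4 in Sirt3 K223R cells and higher in wild-type cells, and 0.0303% the other way round.

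**Figure D2:**
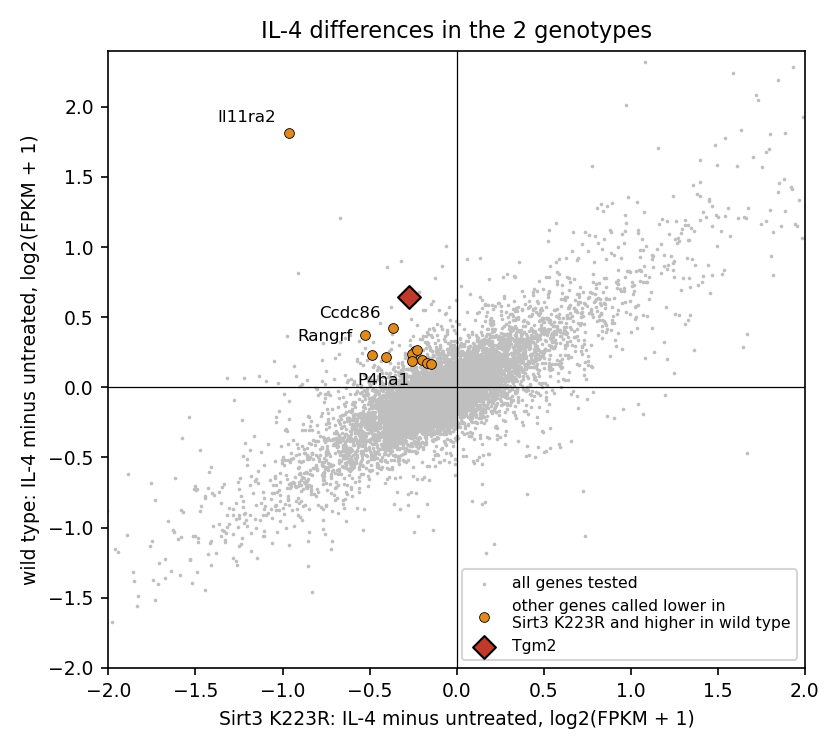
The IL-4 difference of each gene tested in Sirt3 K223R cells (horizontal) and in wild-type cells (vertical), both as log2(FPKM + 1), IL-4 minus untreated. Tgm2, shown without a test at -0.28 and 0.64, lies at the upper left with 12 other genes, which were called in both genotypes. Most genes lie along the rising diagonal, with 81 genes outside the axes.

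The other 12 genes were all less abundant than Tgm2 over the 16 libraries, and in 9 of them the smaller of the differences was under that of Tgm2, 0.28. The H/ACA small nucleolar RNP, which modifies ribosomal RNA and stabilises telomerase RNA, was represented by its subunits Nhp2 and Dkc1. Nhp2 was at 21.8, 22.2, 24.0 and 21.4 FPKM in Sirt3 K223R cells with IL-4, against 27.6, 27.7, 25.2 and 27.2 FPKM in untreated Sirt3 K223R cells. In wild-type cells it was at 33.5, 31.4, 34.4 and 30.0 FPKM with IL-4, against 27.4, 29.4, 28.5 and 27.5 FPKM untreated. Nhp2 thus showed the same separations as Tgm2, with log2 differences of -0.26 in Sirt3 K223R cells (limma adjusted p = 0.00108) and 0.19 in wild-type cells (0.0138). Dkc1, the pseudouridine synthase of the complex, had differences of -0.49 in Sirt3 K223R cells and 0.23 in wild-type cells, the wild-type call being lost with the replicate number as a block (adjusted p = 0.0885).

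P4ha1, a catalytic subunit of collagen prolyl 4-hydroxylase, was at 30.4, 34.0, 32.3 and 32.4 FPKM in Sirt3 K223R cells with IL-4, against 35.8, 39.3, 35.8 and 37.6 FPKM in untreated Sirt3 K223R cells. In wild-type cells it was at 44.2, 42.7, 43.9 and 42.9 FPKM with IL-4, against 35.4, 36.2, 40.5 and 39.1 FPKM untreated. Its differences were -0.20 in Sirt3 K223R cells (limma adjusted p = 0.00565) and 0.20 in wild-type cells (0.00825), and median-ratio scaling ended the first call (adjusted p = 0.247).

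Ctps, which makes CTP, had differences of -0.24 in Sirt3 K223R cells and 0.26 in wild-type cells. Ckap4, an endoplasmic reticulum membrane protein, had differences of -0.25 in Sirt3 K223R cells and 0.24 in wild-type cells. The formin Fmnl2 had differences of -0.23 in Sirt3 K223R cells and 0.27 in wild-type cells. Serpinb9, an inhibitor of granzyme B, had differences of -0.40 in Sirt3 K223R cells and 0.21 in wild-type cells, but its wild-type call was lost with the block (adjusted p = 0.0747). Ccdc86 had differences of -0.36 in Sirt3 K223R cells and 0.42 in wild-type cells. Rangrf, at 2.64 FPKM or less in every library, had differences of -0.52 in Sirt3 K223R cells and 0.37 in wild-type cells. Il11ra2, a receptor subunit gene with near-identical copies, had the widest differences of them, -0.96 in Sirt3 K223R cells and 1.81 in wild-type cells. It was at 0.202 ± 0.249 FPKM with IL-4 and 1.44 ± 0.814 FPKM untreated in Sirt3 K223R cells, and at 3.97 ± 0.519 FPKM with IL-4 and 0.604 ± 1.06 FPKM untreated in wild-type cells (SD, n = 4 each). Its Sirt3 K223R call (limma adjusted p = 0.0308) was lost without replicate 1 or 2 of the libraries with IL-4, or without replicate 1, 3 or 4 of the untreated ones (adjusted p up to 0.0864). Reads of Il11ra2, Amd1 and Serpinb9 could have been split with close relatives.

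Of these 12 genes, 11 were also called for the difference of the IL-4 differences. That contrast is made from the same IL-4 differences that chose the genes. These calls therefore follow largely from the choice and are no separate support. Over all genes tested the contrast called 2.14%, 0.778% as higher in Sirt3 K223R cells and 1.36% as lower. The exception was Timm10, a chaperone of the mitochondrial intermembrane space (limma adjusted p = 0.0585), whose pair of IL-4 calls held in 4 of the 22 alternative settings. With the replicate block Timm10 lost its calls in Sirt3 K223R cells (limma adjusted p = 0.0530) and in wild-type cells (0.0511), and Amd1 was no longer called for the difference of differences (0.0679). Under all 22 alternative settings, Nhp2 and Rangrf kept both calls. P4ha1 kept both in 21 settings, Ccdc86 in 19, Il11ra2 in 17, and Serpinb9 and Ckap4 in 14 each. Both calls held in 9 settings for Amd1, in 8 each for Ctps and Fmnl2, and in 6 for Dkc1. With median-ratio scaling 7 of the 12 lost a call.

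Over the 16 libraries, the gene whose log2 values followed Tgm2 most closely was P4ha1, with a Pearson r of 0.934 and a Spearman rho of 0.959. It was followed by Grwd1, a ribosome assembly factor, with an r of 0.919, and no other gene reached 0.9. Then came the stress granule protein G3bp1 at 0.895, the mRNA-binding protein Igf2bp2 at 0.880, Timm10 at 0.872 and Gpr183, the oxysterol receptor, at 0.866. Ckap4 at 0.864, the proton-activated chloride channel Tmem206 at 0.858, Amd1 at 0.856 and the ETS factor Etv5 at 0.850 closed the 10. The lowest r of any gene was -0.836. These correlations mostly follow 4 group means of libraries that share a treatment and a scaling. For deviations from the group means alone, r was 0.784 for Ckap4 and 0.783 for P4ha1, but 0.328 for G3bp1 and 0.110 for Gpr183.

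**Figure D3:**
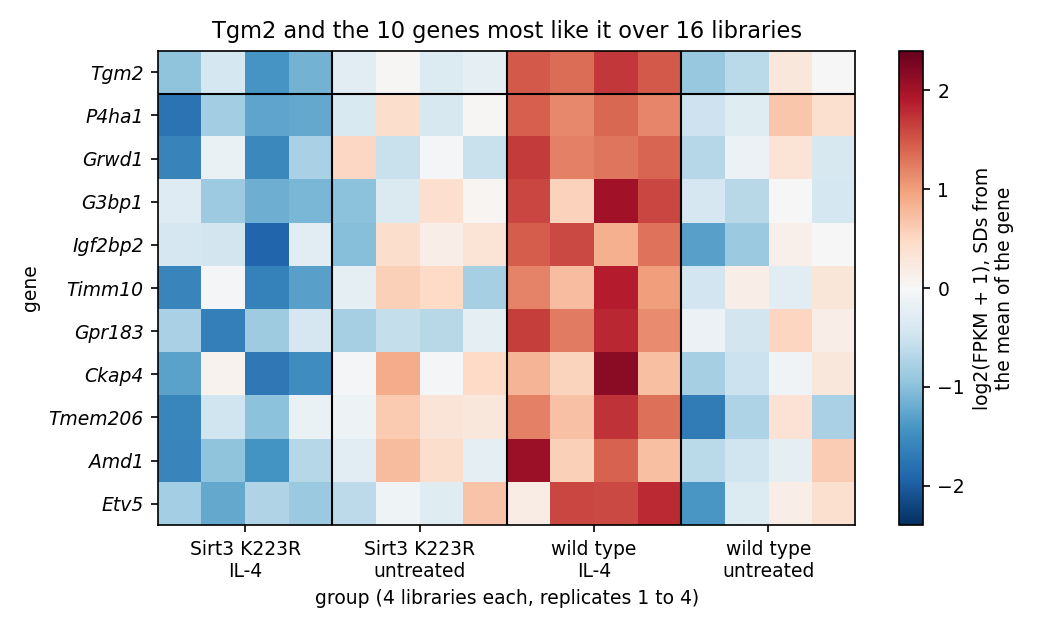
A heat map of log2(FPKM + 1) of Tgm2 and of the 10 genes most like it over the 16 libraries, each gene in SDs from its own mean (red above, blue below), with libraries in the order Sirt3 K223R IL-4, Sirt3 K223R untreated, wild-type IL-4, wild-type untreated. In all 11 genes the wild-type IL-4 block is the reddest, and the r of the 10 runs down from 0.934 to 0.850.

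These 10 genes were chosen for their likeness to Tgm2 in these same libraries, so their calls and p-values follow in part from that choice. Of these 10 genes 4 had the crossed calls, namely P4ha1, Timm10, Ckap4 and Amd1. After median-ratio scaling none of the 4 was called lower in Sirt3 K223R cells (limma adjusted p = 0.247 for P4ha1, 0.659 for Timm10, 0.205 for Ckap4 and 0.380 for Amd1). For the other 6 the wild-type difference was called higher, as in Gpr183, 0.59 (limma adjusted p = 0.000708), while the Sirt3 K223R difference was not called, as in Gpr183, -0.15 (0.30). With IL-4, Gpr183 averaged 2.47 ± 0.495 FPKM in Sirt3 K223R cells and 5.82 ± 0.632 FPKM in wild-type cells (SD, n = 4 each), a log2 difference of -0.98 (limma adjusted p = 5.72e-05). When single libraries were left out, 5 to 10 of these genes stayed in the group of 10.

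Tgm2 did not move with the alternative activation genes in Sirt3 K223R cells. Of 28 other tested genes of that list, 26 were called higher with IL-4 in Sirt3 K223R cells, where 13.5% of genes tested were, and 27 in wild-type cells, where 10.7% were. None was called lower. The median of the list was 2.18 in Sirt3 K223R cells and 1.91 in wild-type cells. Arg1, which splits arginine to ornithine and urea, had differences of 7.03 in Sirt3 K223R cells and 6.81 in wild-type cells, and the checkpoint ligand Pdcd1lg2 of 4.49 in Sirt3 K223R cells and 4.14 in wild-type cells. The lectin gene Mgl2 had differences of 6.30 in Sirt3 K223R cells and 5.15 in wild-type cells, and Ocstamp, needed for macrophage fusion, of 2.91 in Sirt3 K223R cells and 3.01 in wild-type cells. The chitinase-like gene Chil3 averaged 6633 ± 388 FPKM with IL-4 in Sirt3 K223R cells and 1908 ± 384 FPKM with IL-4 in wild-type cells (SD, n = 4 each), but its values may include reads of a close relative.

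The list's lowest difference with IL-4 in Sirt3 K223R cells was 0.04, for the elastase Mmp12, so Tgm2 at -0.28 lay below all 28 others. Between genotypes with IL-4, where 15.0% of genes tested were called, 7 of the 28 were called higher in Sirt3 K223R cells, as 5.0% of genes tested were, and none lower, as 10.0% were. The lowest of the 28 was the chemokine Ccl22 at -0.37, against -0.87 for Tgm2. Tgm2 was chosen for its crossed IL-4 directions, so its place below these genes in both comparisons follows largely from that choice. Tgm2 also differed from these genes before treatment. Over the 8 untreated libraries it averaged 92.4 FPKM, while the median of the others was 1.15 FPKM, 21 of them lay under 5 FPKM and 2 lay above Tgm2.

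Of 14 tested genes of the IL-4 receptor and STAT6 route, the upstream signal for Tgm2, 5 were called higher and 3 lower with IL-4 in Sirt3 K223R cells, beside 13.5% and 29.1% of all genes tested. In wild-type cells 4 were called higher and 3 lower, beside 10.7% and 15.3%. The receptor chain Il4ra averaged 15.2 FPKM with IL-4 and 16.3 FPKM untreated in Sirt3 K223R cells, and 13.6 FPKM with IL-4 and 15.8 FPKM untreated in wild-type cells, with no call. The common gamma chain Il2rg had differences of 1.03 in Sirt3 K223R cells and 0.83 in wild-type cells. Socs1, a feedback inhibitor, had differences of 3.31 in Sirt3 K223R cells and 2.89 in wild-type cells, and the nuclear receptor Pparg of 1.07 in Sirt3 K223R cells and 0.98 in wild-type cells. Stat6 fell slightly, by 0.20 in Sirt3 K223R cells and by 0.14 in wild-type cells. Il13ra1, a chain of the type II IL-4 receptor, fell by 1.47 in Sirt3 K223R cells and by 0.84 in wild-type cells, to 1.31 ± 0.196 FPKM in Sirt3 K223R cells and 2.19 ± 0.378 FPKM in wild-type cells (SD, n = 4 each), and its IL-4 differences differed between genotypes by -0.63 (limma adjusted p = 0.0240). Leaving out replicate 2 or 3 of untreated Sirt3 K223R cells, or replicate 3 of wild-type cells with IL-4, ended that call (adjusted p up to 0.0540). Between genotypes with IL-4, 2 of the 14 were called higher in Sirt3 K223R cells and 1, Il13ra1, lower, beside 5.0% and 10.0% of all genes tested. Those called higher were the kinase Tyk2, by 0.20, and Stat3, by 0.21. The median of the 14 was 0.11, beside -0.05 for all genes tested.

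Of 14 tested genes for surface and matrix partners of the enzyme, 4 were called higher and 5 lower with IL-4 in Sirt3 K223R cells, beside 13.5% and 29.1% of all genes tested. In wild-type cells 4 were called higher and 6 lower, beside 10.7% and 15.3%, with medians of -0.34 in Sirt3 K223R cells and -0.37 in wild-type cells. Fn1, which encodes fibronectin, the main matrix partner, was at 63.3, 32.3, 74.7 and 47.1 FPKM in Sirt3 K223R cells with IL-4 and 5.72, 8.69, 12.8 and 9.84 FPKM in wild-type cells with IL-4. It was at 0.527 to 1.05 FPKM in untreated Sirt3 K223R cells and 0.417 to 0.735 FPKM in untreated wild-type cells. Fn1 with IL-4 was thus higher in every Sirt3 K223R library than in any wild-type library, the opposite of Tgm2, with a log2 difference of 2.41 (limma adjusted p = 2.15e-05). Its IL-4 differences, 4.89 in Sirt3 K223R cells and 2.69 in wild-type cells, differed between genotypes by 2.20 (adjusted p = 0.00436).

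The beta-3 integrin Itgb3 had IL-4 differences of 2.02 in Sirt3 K223R cells and 1.68 in wild-type cells, with no call between genotypes. Sdc4, a heparan sulfate proteoglycan that binds transglutaminase 2, was at 58.2, 64.4, 65.8 and 62.2 FPKM in Sirt3 K223R cells with IL-4 and 98.3, 101, 60.6 and 79.8 FPKM in wild-type cells with IL-4. These libraries overlap at 1 wild-type value, and the call of -0.41 (limma adjusted p = 0.0417) was lost in 14 of the 22 alternative settings (adjusted p up to 0.131). Mmp14, a membrane protease that cleaves transglutaminase 2, fell by 1.25 in Sirt3 K223R cells and by 0.91 in wild-type cells.

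**Figure D4:**
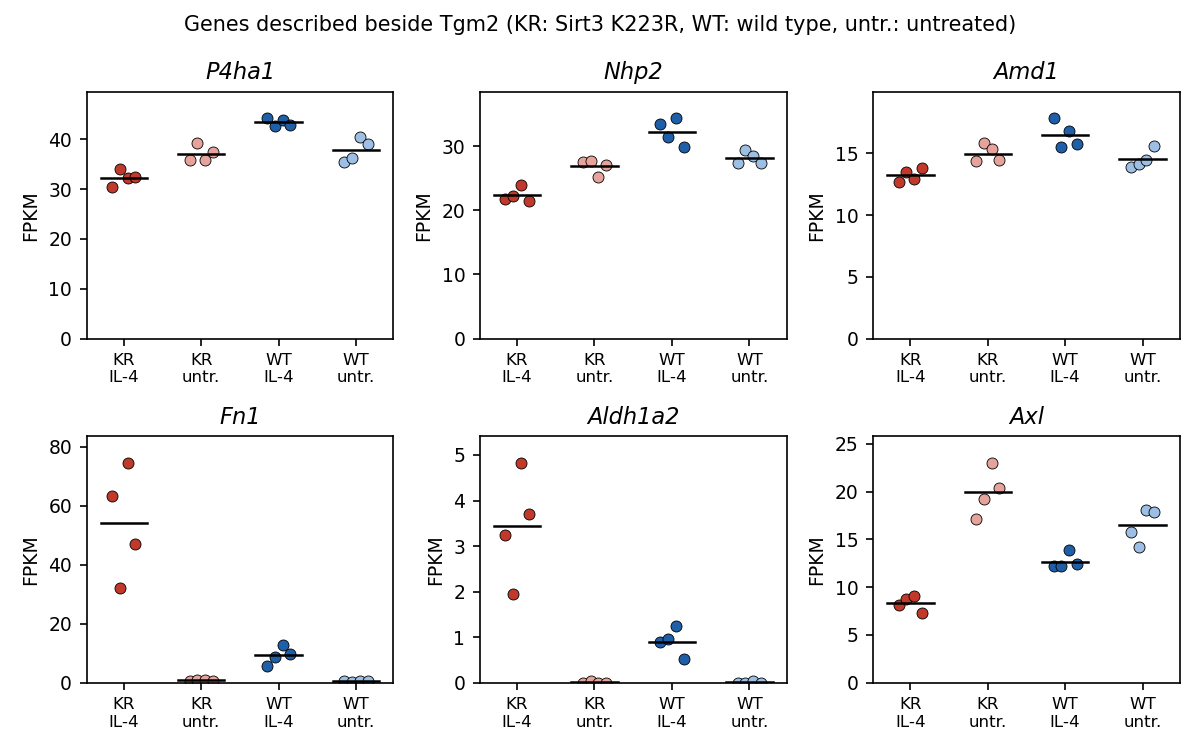
FPKM of 6 genes in each library (points) by group, with group means as lines and each vertical axis starting at 0. P4ha1, Nhp2 and Amd1 were lower with IL-4 in Sirt3 K223R cells and higher in wild-type cells, Fn1 and Aldh1a2 were higher with IL-4 in both and higher still in Sirt3 K223R cells, and Axl was lower with IL-4 in both.

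Of 11 tested genes for proteins known to be crosslinked, 3 were called higher and 3 lower with IL-4 in Sirt3 K223R cells, and 3 higher and 1 lower in wild-type cells. Over all genes tested the shares called higher and lower were 13.5% and 29.1% in Sirt3 K223R cells, and 10.7% and 15.3% in wild-type cells, so the count called lower was near the background in Sirt3 K223R cells. The phospholipid-binding protein Anxa1 had differences of 0.90 in Sirt3 K223R cells and 0.63 in wild-type cells. Nfkbia, the inhibitor of NF-kappaB, fell by 0.97 in Sirt3 K223R cells and by 0.52 in wild-type cells, and with IL-4 it was lower in Sirt3 K223R cells, at 29.7 ± 2.48 FPKM, than in wild-type cells, at 42.2 ± 6.69 FPKM (SD, n = 4 each, log2 difference -0.48, limma adjusted p = 0.00290). Spp1, which encodes osteopontin, averaged 1035 FPKM with IL-4 and 1551 FPKM untreated in Sirt3 K223R cells, and 1458 FPKM with IL-4 and 1439 FPKM untreated in wild-type cells. Its difference was -0.60 in Sirt3 K223R cells (limma adjusted p = 0.00185) and 0.02 in wild-type cells, which was not called (0.935).

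Of the listed partners in GTP binding and adrenergic signalling, 3 of 5 were tested. The alpha-1A adrenergic receptor Adra1a fell by 1.01 in Sirt3 K223R cells and by 0.96 in wild-type cells, at 4.63 FPKM or less in every library. The phospholipase Plcd1, which the GTP-bound form activates, was called in neither genotype with IL-4, and with IL-4 it averaged 1.86 ± 0.0927 FPKM in Sirt3 K223R cells and 0.960 ± 0.171 FPKM in wild-type cells (SD, n = 4 each, log2 difference 0.55, limma adjusted p = 0.00141). Calr, which encodes calreticulin, had IL-4 differences of 0.73 in Sirt3 K223R cells and 0.60 in wild-type cells.

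The polyamine genes, whose products can be joined to proteins by the enzyme, were in part lower with IL-4 in Sirt3 K223R cells than in wild-type cells. Of 11 tested, 5 were called lower in that comparison and none higher, with a median of -0.29 beside -0.05 for all genes tested. Of all genes tested 10.0% were called lower there and 5.0% higher. Against untreated cells, 2 were called higher and 6 lower in Sirt3 K223R cells, and 3 higher and 1 lower in wild-type cells. The shares over all genes tested were 13.5% and 29.1% in Sirt3 K223R cells, and 10.7% and 15.3% in wild-type cells. Amd1, which makes the aminopropyl donor, crossed as Tgm2 did. It was at 12.7, 13.5, 12.9 and 13.8 FPKM in Sirt3 K223R cells with IL-4, against 14.4, 15.8, 15.3 and 14.4 FPKM in untreated Sirt3 K223R cells. In wild-type cells it was at 17.8, 15.5, 16.8 and 15.8 FPKM with IL-4, against 13.9, 14.1, 14.4 and 15.6 FPKM untreated, where the libraries overlap. Its differences were -0.17 in Sirt3 K223R cells (limma adjusted p = 0.0210), not called after median-ratio scaling (0.380), and 0.17 in wild-type cells (0.0266), not called with the replicate block (0.0585).

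Azin1, the antizyme inhibitor, was at 14.4, 15, 15.4 and 14.9 FPKM in Sirt3 K223R cells with IL-4 and 24.8, 21.5, 16.7 and 21.4 FPKM in wild-type cells with IL-4, with no overlap (log2 difference -0.46, limma adjusted p = 0.00416). Sms, spermine synthase, averaged 6.95 ± 0.255 FPKM with IL-4 in Sirt3 K223R cells and 9.20 ± 0.603 FPKM with IL-4 in wild-type cells (SD, n = 4 each, difference -0.36, limma adjusted p = 0.00203). Paox, a polyamine oxidase, averaged 3.51 ± 0.298 FPKM with IL-4 in Sirt3 K223R cells and 4.76 ± 0.553 FPKM with IL-4 in wild-type cells (SD, n = 4 each, difference -0.35, limma adjusted p = 0.00339).

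Of the retinoic acid genes 8 of 17 were tested, with 3 called higher and 3 lower by IL-4 in each genotype, where over all genes 13.5% were called higher and 29.1% lower in Sirt3 K223R cells, and 10.7% higher and 15.3% lower in wild-type cells. Aldh1a2 is among those called higher in each genotype, and its calls are no support, for the reason given below. Aldh1a2, an enzyme that makes retinoic acid, was at 3.24, 1.95, 4.83 and 3.71 FPKM in Sirt3 K223R cells with IL-4 and 0.893, 0.961, 1.24 and 0.520 FPKM in wild-type cells with IL-4. It was listed at 0 in 3 untreated Sirt3 K223R libraries and 3 untreated wild-type libraries, and at 0.0329 and 0.0366 FPKM in the remaining ones. Its IL-4 differences of 2.10 in Sirt3 K223R cells and 0.90 in wild-type cells differed by 1.19, in the direction opposite to that of Tgm2. Aldh1a2 passed the filter of 1 FPKM in 4 libraries only through the Sirt3 K223R libraries with IL-4, where it was highest. Its difference is therefore given as a description, without a p-value. The receptor Rarg was also higher with IL-4 in Sirt3 K223R cells, at 8.61 ± 0.538 FPKM, than in wild-type cells, at 6.59 ± 0.744 FPKM (SD, n = 4 each, difference 0.34, limma adjusted p = 0.00756). The receptor Rxra was lower there, at 15.3 FPKM against 19.2 FPKM (difference -0.31, limma adjusted p = 0.0418). In that comparison 2 of the 8 were called higher, Aldh1a2 among them, and 1 lower, beside 5.0% and 10.0% of all genes tested. The median of the 8 was -0.04, beside -0.05 for all genes tested. Rdh10, a retinol dehydrogenase, was called lower with IL-4 in both genotypes, and Dhrs3, a retinal reductase, was called higher in both.

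Of 14 tested genes of the TGF-beta and NF-kappaB routes, 3 were called higher and 8 lower with IL-4 in Sirt3 K223R cells. In wild-type cells 2 were called higher and 8 lower. The shares over all genes tested were 13.5% and 29.1% in Sirt3 K223R cells, and 10.7% and 15.3% in wild-type cells. Between genotypes with IL-4, 1 of the 14 was called higher and 5 lower in Sirt3 K223R cells, beside 5.0% and 10.0% of all genes tested. Tnf averaged 1.51 ± 0.223 FPKM in Sirt3 K223R cells with IL-4 and 3.0 ± 0.460 FPKM in wild-type cells with IL-4 (SD, n = 4 each, difference -0.67, limma adjusted p = 0.00174). The receptor Tgfbr1 fell by 1.49 in Sirt3 K223R cells and by 0.72 in wild-type cells. Its difference between genotypes with IL-4, -0.50 (limma adjusted p = 0.0328), was lost in 8 alternative settings, median-ratio scaling among them (adjusted p up to 0.0941). Tgfbr2 fell by 0.57 in Sirt3 K223R cells and by 0.43 in wild-type cells. The cytokine gene Il1b, picked out after its values were seen, was the 1 list member lower between genotypes than Tgm2, at -1.13 (limma adjusted p = 0.00285).

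**Figure D5:**
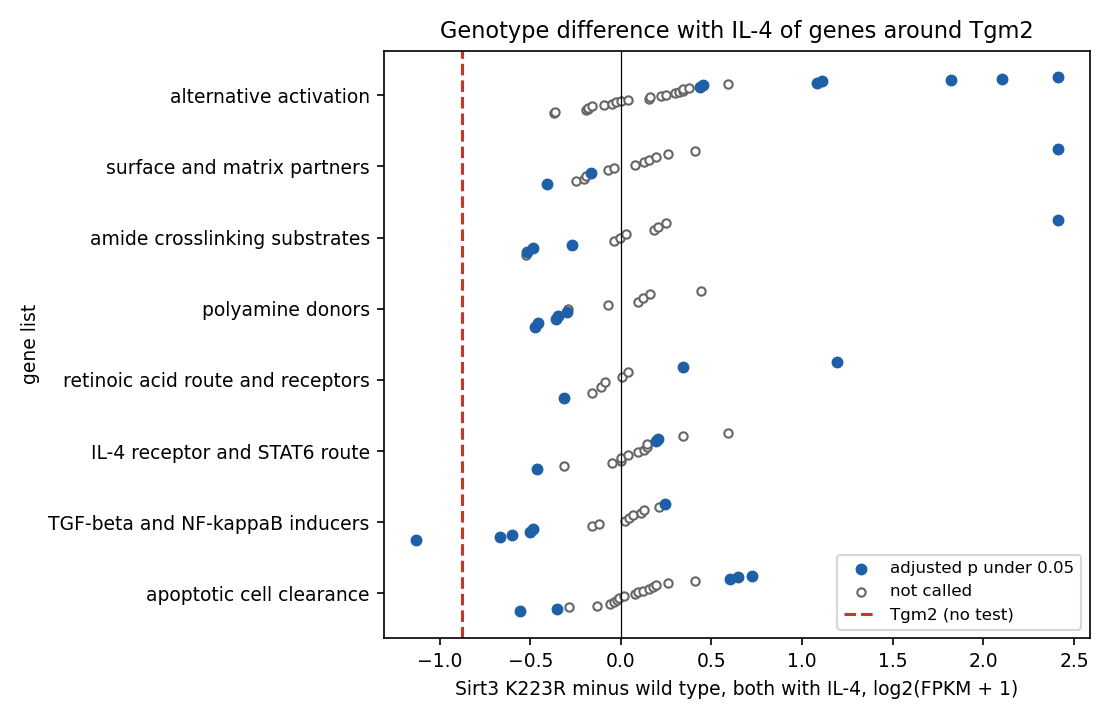
The difference of Sirt3 K223R from wild type, both with IL-4, as log2(FPKM + 1), for each tested member of the lists shown (points, filled where the limma adjusted p was under 0.05), with Tgm2 at -0.87 as a dashed line. Among alternative activation genes all points lie to the right of Tgm2, and of all lists shown 1 point, Il1b, lies to its left. The filled point of Aldh1a2, which passed the filter only through the Sirt3 K223R libraries with IL-4, is no test result.

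Of 20 tested genes for the clearance of apoptotic cells, 4 were called higher and 7 lower with IL-4 in Sirt3 K223R cells, and 4 higher and 9 lower in wild-type cells. Of all genes tested, 13.5% were called higher and 29.1% lower in Sirt3 K223R cells, and 10.7% higher and 15.3% lower in wild-type cells. Axl, a receptor that binds apoptotic cells through bridging proteins, was at 8.09, 8.80, 9.10 and 7.30 FPKM in Sirt3 K223R cells with IL-4, against 17.2, 19.2, 23.0 and 20.3 FPKM in untreated Sirt3 K223R cells. In wild-type cells it was at 12.2, 12.2, 13.9 and 12.5 FPKM with IL-4, against 15.8, 14.2, 18.0 and 17.9 FPKM untreated. The IL-4 libraries were lower in both genotypes, and the differences differed by -0.81 (limma adjusted p = 0.00559). Pros1, a bridging protein, moved the other way. It averaged 23.0 ± 3.38 FPKM in Sirt3 K223R cells with IL-4 and 14.7 ± 0.575 FPKM in wild-type cells with IL-4 (SD, n = 4 each), and its IL-4 differences of 1.00 in Sirt3 K223R cells and 0.40 in wild-type cells differed by 0.61 (limma adjusted p = 0.0103). The engulfment adaptor Elmo1 fell by 1.00 in Sirt3 K223R cells and by 0.52 in wild-type cells, and the call on the difference between these (limma adjusted p = 0.0366) was lost without any 1 of 9 libraries (adjusted p up to 0.0763).

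Between untreated Sirt3 K223R and wild-type cells 0.0% of genes tested were called with limma in these lists or outside them, while 737 genes (7.45%) had an unadjusted p under 0.05. The smallest adjusted p was 0.0982.

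Of the 5 genes within 500 kb of Tgm2 in the tables, none was called higher with IL-4 in either genotype, a count near the background, as 13.5% of genes tested were called higher in Sirt3 K223R cells and 10.7% in wild-type cells. Actr5, a subunit of the INO80 chromatin remodeller, had differences of -0.40 in Sirt3 K223R cells (limma adjusted p = 0.00350) and -0.04 in wild-type cells (0.800). Ralgapb, a subunit of a GTPase-activating complex, had differences of -0.26 in Sirt3 K223R cells (limma adjusted p = 0.00837), not called after median-ratio scaling (0.0502), and -0.16 in wild-type cells (0.131). Ctnnbl1 and Tti1 were called in neither genotype.

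The cells had the markers of macrophages, at summed levels of 11001 to 12815 FPKM in Sirt3 K223R cells with IL-4, 13433 to 16207 in untreated Sirt3 K223R cells, 10964 to 12055 in wild-type cells with IL-4 and 14607 to 16250 in untreated wild-type cells. Endothelial cells and fibroblasts are known to have much Tgm2. The 3 of 6 endothelial markers in the tables summed to 14.0 to 15.4 FPKM in Sirt3 K223R cells with IL-4, 4.11 to 4.70 in untreated Sirt3 K223R cells, 10.1 to 11.1 in wild-type cells with IL-4 and 3.49 to 4.46 in untreated wild-type cells, and the endothelial receptor Kdr was at 0.337 FPKM or less. Most of that sum was Vwf, highest in Sirt3 K223R cells with IL-4. Pecam1, which leukocytes also express, was highest where Tgm2 was, averaging 1.97 FPKM in Sirt3 K223R cells with IL-4, 0.956 in untreated Sirt3 K223R cells, 2.92 in wild-type cells with IL-4 and 1.08 in untreated wild-type cells. With IL-4 its genotype difference was -0.41 (limma adjusted p = 0.0119). The 5 of 10 fibroblast and smooth muscle markers in the tables summed to 1.08 to 2.55 FPKM in Sirt3 K223R cells with IL-4, 6.66 to 8.25 in untreated Sirt3 K223R cells, 1.79 to 3.06 in wild-type cells with IL-4 and 4.45 to 6.00 in untreated wild-type cells. The 6 of 9 neutrophil markers summed to 40.4 to 63.9 FPKM in Sirt3 K223R cells with IL-4, 105 to 145 in untreated Sirt3 K223R cells, 53.5 to 105 in wild-type cells with IL-4 and 78.8 to 165 in untreated wild-type cells. The part of other cell types in the Tgm2 result was not tested.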

How the data were processed

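Polyadenylated or ribosome-depleted RNA (the labels give both, not which library had which) was made into stranded libraries and read from both ends, per the labels' protocols. The deposited FPKM values are the authors' own. No header states the unit. FPKM was inferred because values are not whole and sum to 288143 to 306581 per library, so depth is unknown and no counting interval is given. The aligner is not given in the sources used here, nor is the counter. All 9510 gene identifiers shared with GENCODE M21 had equal coordinates, hence GRCm38. Files of Sirt3 K223R libraries have a gene type column that wild-type files lack, so processing that differed between genotypes cannot be told apart from genotype. Each file had 1 blank line, left out.

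Genes with at least 1 FPKM in at least 4 libraries (9891) were fitted as log2(FPKM + 1), with a pseudocount of 1, by limma 3.58.1 (R 4.3.3) with trend and 4 group means over all 16 libraries, adjusted by Benjamini-Hochberg and called under 0.05. Adjusted p-values are limma's. Steps were tested on simulated data. Tables used Python 3.11.15 and pandas 2.3.3. The gene and the lists were chosen with earlier results of these data known. Named were the 10 genes most correlated with Tgm2, up to 10 with its crossed calls, family members, genes within 500 kb, and in every list at most 4 members, those of smallest adjusted p. Others are named where a count or a comparison turns on them, after their values were seen. Same-numbered IL-4 and untreated wild-type libraries deviated together (correlations 0.286, 0.122, 0.100 and 0.116 across genes), which was taken as a sign of pairing. The main fit did not use it. Alternatives were a pseudocount of 0.1, no filter, median-ratio and quantile scaling, a replicate block, fits on the compared groups alone, and each library left out.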

Additional observations from a re-analysis of the deposited data

Results flagged for a closer look

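For Tgm2 every same-numbered comparison went down with IL-4 in Sirt3 K223R cells and up in wild-type cells. Any matching of libraries would give this, since IL-4 and untreated FPKM values did not overlap in either genotype. The difference of the IL-4 differences was -0.92. That difference was not tested for Tgm2, which was chosen for it. Of the 9891 genes tested, 77 with Tgm2 among them had 4 Sirt3 K223R pairs down and 4 wild-type pairs up, and 27 had the mirror pattern. By Dixon's test at the 95% level, 3 of 45 combinations of a gene and a group held a library far from the other 3, where chance gives about 1 in 20. They were Ckap4 in wild-type IL-4 replicate 3, at 30.3 FPKM, Etv5 in wild-type IL-4 replicate 1, at 7.33 FPKM, and Igf2bp2 in Sirt3 K223R IL-4 replicate 3, at 3.28 FPKM. The 45 combinations did not take in every named gene. Not among the 3 were Dkc1 in Sirt3 K223R IL-4 replicate 1, at 2.49 FPKM against 2.02 to 2.06 FPKM in the rest of its group, and Rprd1b in wild-type IL-4 replicate 3, at 0.704 FPKM against 3.47 to 3.65 FPKM.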

How the results depend on the processing

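Tgm2 kept its directions for the IL-4 differences and the genotype difference with IL-4 in all settings run. With single libraries left out, the IL-4 difference was -0.34 to -0.22 in Sirt3 K223R cells and 0.57 to 0.71 in wild-type cells, the genotype difference -0.94 to -0.82 with IL-4 and -0.02 to 0.11 untreated, and the difference of differences -0.99 to -0.85. Quantile normalization gave -0.33 and 0.52 for the IL-4 differences. Genes with the crossed calls, counted without leaving Tgm2 out, numbered 13, 8 with median-ratio scaling and 6 to 17 with a library left out. They fell to 6, 7, 8 and 8 without untreated Sirt3 K223R replicate 2 or 3, Sirt3 K223R IL-4 replicate 3 or untreated wild-type replicate 1. Calls of the difference of differences, 212, were 326 with the replicate block and 112 to 344 with a library left out. They were 112 and 136 without untreated Sirt3 K223R replicate 2 or 3, 344 and 116 without Sirt3 K223R IL-4 replicate 2 or 3, and 130 and 131 without wild-type IL-4 replicate 3 or 4. With a library left out, IL-4 calls were 3651 to 4214 in Sirt3 K223R cells and 2189 to 2995 in wild-type cells, and genotype calls 1201 to 1573 with IL-4 and 0 to 2 untreated. Fits on the compared groups alone, with fewer samples, gave 703 genotype calls with IL-4, not 1487, and 1 untreated, not 0. The share of IL-4 calls that were higher was 31.6% in Sirt3 K223R cells and 41.0% in wild-type cells, against 52.1% and 53.5% with median-ratio scaling, and that of genotype calls with IL-4 33.3%, against 57.2%, and of the difference of differences 36.3%, against 59.0%. Of 154 calls of named genes, 34 were lost in at least 1 of 22 settings, 10 of them with the block, and 0 reversed. The cause was not tested. In Sirt3 K223R cells same-numbered libraries correlated at 0.052, 0.083, 0.127 and -0.045, so a pairing was not clear there. Depth is unknown, and 4 libraries a group limit the precision.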
